A study of Rattus norvegicus with 24 samples.

Results

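The 44 genes described here encode the machinery of cell division: the enzymes that copy DNA, the cyclins and kinases that start DNA synthesis and mitosis, and the proteins that separate chromosomes. They were chosen by name from textbook roles, and array probes were matched to them by accession (33 genes), by symbol (9) or by the description on the array (2, Mcm3 and Mki67). All 44 were measured, of 13445 named genes and 26196 features that passed the filter on dim probes. They were carried by 65 probes, and each gene was represented by its brightest probe. All 44 were well above background on every one of the 24 arrays, except Cenpa, which was so on 23.

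The samples were normal distal colon and colonic tumours of 10 male (ACIxF344)F1-Pirc rats. All of these rats, treated or not, carry the Pirc allele of the tumour suppressor Apc beside a wild-type copy (Apc-Pirc/+), so normal colon here is mutant tissue outside the tumours. 5 rats (numbered 2, 3, 4, 8 and 10) were untreated. The other 5 (1, 5, 6, 7 and 9) drank 4% dextran sodium sulfate (DSS, molecular weight 500000), which damages the colonic lining, on days 40 to 47 and 54 to 61. Both tissues were taken from every rat at 97 days of age, so each of the 4 groups held 5 rats, and the tissues were taken weeks after DSS had ended. Values are log2 of the sample (Cy3) over RNA pooled from wild-type rat colon (Cy5), the same on every array: 0 is the level of the pool and 1 is a doubling. Because whole tissue was measured, more dividing cells and more of a transcript per cell cannot be told apart.

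Cell division genes come in waves. Before S phase, origins of replication are licensed when Cdc6 and Cdt1 load the ring-shaped Mcm helicase onto DNA, and cyclin E, a target of the E2f transcription factors, then starts synthesis with its kinase Cdk2, through polymerases that slide along DNA with the clamp Pcna. Mitotic genes follow later: cyclin B with Cdk1 drives entry, Aurora and Polo kinases and the Bub checkpoint control chromosome attachment, kinesins move the spindle, and Cdc20 and Ube2c direct the destruction of cyclins at exit. In the colon these waves take place in the lower crypt, and Mki67 (Ki-67) is the usual stain for cells in any phase of division. As background, genes of the first wave are known for E2F sites in their promoters and genes of the second for a cell cycle homology region (CHR) near CCAAT boxes.

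Promoters are shown first for 4 replication and S phase entry genes and 3 mitotic genes whose values recur below, with and without the letters searched. Sequences are from RefSeq on build GRCr8. The promoter table used here matched 35 of the 44 members, each with 250 bases before and 50 after the start; only the bases before the start are printed, 5′ to 3′ on the strand of the gene. Capitals mark 3 motifs searched on both strands: E2F (TTTCCCGC, TTTCGCGC, TTTGCCGC or TTTGGCGC), CHR (TTTGAA) and the CCAAT box (CCAAT, read ATTGG on the other strand). Motif runs can overlap, as TTTCGCGC and CCAAT do in Mcm7. Mcm6 and Mcm7 are subunits of the replicative helicase, Pcna is the sliding clamp, Ccne1 is a cyclin of S phase entry, and Cdc20, Kif23 and Cenpa act in mitosis.
Mcm6, chr13:42404353-42404602, minus strand: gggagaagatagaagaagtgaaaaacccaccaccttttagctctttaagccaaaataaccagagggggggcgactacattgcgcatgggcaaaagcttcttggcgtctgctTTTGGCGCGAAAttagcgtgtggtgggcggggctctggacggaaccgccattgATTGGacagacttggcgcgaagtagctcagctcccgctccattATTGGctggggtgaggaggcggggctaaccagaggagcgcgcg
Mcm7, chr12:22163179-22163428, minus strand: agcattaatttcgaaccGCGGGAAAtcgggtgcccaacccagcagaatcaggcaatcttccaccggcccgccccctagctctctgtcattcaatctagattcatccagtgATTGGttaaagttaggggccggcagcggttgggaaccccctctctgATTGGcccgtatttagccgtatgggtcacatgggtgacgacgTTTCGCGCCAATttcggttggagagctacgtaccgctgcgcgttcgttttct
Pcna, chr3:139955821-139956070, minus strand: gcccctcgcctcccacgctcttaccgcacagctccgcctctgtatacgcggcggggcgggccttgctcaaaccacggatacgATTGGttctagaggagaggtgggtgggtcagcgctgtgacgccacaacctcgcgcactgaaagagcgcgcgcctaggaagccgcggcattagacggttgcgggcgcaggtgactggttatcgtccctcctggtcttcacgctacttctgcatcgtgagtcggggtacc
Ccne1, chr1:99927910-99928159, minus strand: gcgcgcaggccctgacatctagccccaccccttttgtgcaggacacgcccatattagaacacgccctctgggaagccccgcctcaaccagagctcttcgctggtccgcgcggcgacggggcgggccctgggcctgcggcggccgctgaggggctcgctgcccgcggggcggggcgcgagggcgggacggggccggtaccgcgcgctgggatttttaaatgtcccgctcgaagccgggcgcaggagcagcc
Cdc20, chr5:137255800-137256049, minus strand: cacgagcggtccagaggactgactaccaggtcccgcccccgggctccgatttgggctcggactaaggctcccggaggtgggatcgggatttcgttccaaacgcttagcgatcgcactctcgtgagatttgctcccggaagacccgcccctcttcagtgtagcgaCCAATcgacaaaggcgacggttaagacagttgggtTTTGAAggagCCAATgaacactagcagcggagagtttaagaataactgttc
Kif23, chr8:71320585-71320834, minus strand: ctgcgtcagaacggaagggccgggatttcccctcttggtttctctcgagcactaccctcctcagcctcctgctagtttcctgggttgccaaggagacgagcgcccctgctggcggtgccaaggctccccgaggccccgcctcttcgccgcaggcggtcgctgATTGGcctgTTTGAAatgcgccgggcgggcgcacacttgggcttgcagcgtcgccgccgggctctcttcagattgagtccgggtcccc
Cenpa, chr6:31431553-31431802, minus strand: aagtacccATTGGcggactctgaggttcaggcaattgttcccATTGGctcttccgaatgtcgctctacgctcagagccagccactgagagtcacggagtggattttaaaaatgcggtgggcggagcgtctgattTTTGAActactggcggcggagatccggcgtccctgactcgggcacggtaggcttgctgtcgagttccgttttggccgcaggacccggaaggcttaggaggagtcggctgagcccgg
In Mcm6 the E2F letters began at -139 and -135 from the start. Pcna and Ccne1 held no E2F letters in this window, and Ccne1 held none of the 3 motifs. The CHR letters began at -51 in Cdc20, -79 in Kif23 and -116 in Cenpa. All 5 Mcm promoters in the table (Mcm2, Mcm3, Mcm5, Mcm6 and Mcm7) held E2F letters.

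Over the whole 300 bases, E2F letters were found in 9 of 16 promoters of replication and S phase entry genes (56.2%), in 1 of 18 promoters of mitotic genes (5.56%, Cdk1) and in 2.14% of all 33469 promoters. CHR letters were found in 1 of 16 replication promoters (6.25%, Mcm2), in 12 of 18 mitotic promoters (66.7%) and in 18.3% of all promoters. The CCAAT box was common to both groups, at 11 of 16 (68.8%) and 15 of 18 (83.3%), against 37.5% of all promoters. CHR and CCAAT letters stood together in 0 of 16 replication promoters and 11 of 18 mitotic ones (61.1%), against 7.41% of all. These are matches of letters in one window and not tests of binding. Ccnb1 is an example of a mitotic gene with 2 CCAAT boxes and no CHR letters in the window.

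**Figure D1:**
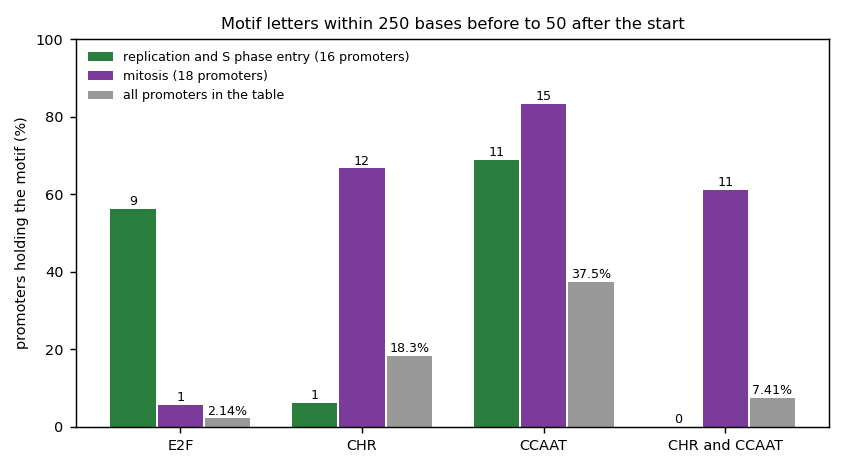
Share of promoters (%, from 0) that hold each motif on either strand within 300 bases, for 16 replication and S phase entry genes, 18 mitotic genes and all promoters in the table; numbers over coloured bars are counts of genes. E2F letters stood in 9 replication and 1 mitotic promoter, and CHR letters in 1 and 12.

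The array read each gene with a probe of 60 bases. Those behind the values that recur below are given so that they can be placed on a transcript.
Mcm6 probe: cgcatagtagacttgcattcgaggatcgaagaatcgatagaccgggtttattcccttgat
Pcna probe: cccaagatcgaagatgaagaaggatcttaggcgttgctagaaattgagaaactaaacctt
Rrm2 probe: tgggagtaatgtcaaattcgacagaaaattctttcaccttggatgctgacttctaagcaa
Kif23 probe: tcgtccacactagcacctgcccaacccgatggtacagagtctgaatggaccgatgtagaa
Cdc20 probe: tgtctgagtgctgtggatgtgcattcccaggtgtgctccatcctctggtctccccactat
Mki67 probe: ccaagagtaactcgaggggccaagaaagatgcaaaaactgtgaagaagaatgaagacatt
19 members had more than 1 probe, and none of these probes shared more than 8 bases in a row with another probe of its gene.

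The 20 samples were hybridised on 24 arrays, and the arrays of 1 sample were averaged. On 21 arrays 47.6% to 70.5% of probes were well above background, and on 3 (the first array of normal colon of rat 2, normal colon of rat 4 and tumour of DSS rat 9) the share was 86.9% to 95.2%. Rats 1 to 6 were on slides 1 to 4, and rats 7 to 10 were on slides 5 and 6, scanned on the third day. Each slide set held both treatments, with 3 and 2 rats per group. Normal colon of DSS rats 1 and 5 correlated at 0.970 across features, above the 0.813 to 0.968 between 2 arrays of 1 sample, so results are also given with these rats counted as 1 sample. The labels do not say whether rats shared a cage or litter. The epithelial genes Epcam, Cdh1 and Vil1 were well above background on all arrays. The goblet cell mucin Muc2 was well above background on every array of normal colon, on 4 of 5 arrays of untreated tumours and on 1 of 6 of DSS tumours. The other goblet cell markers measured (Tff3, Spdef, Clca1 and Agr2) were well above background on all arrays.

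**Figure D2:**
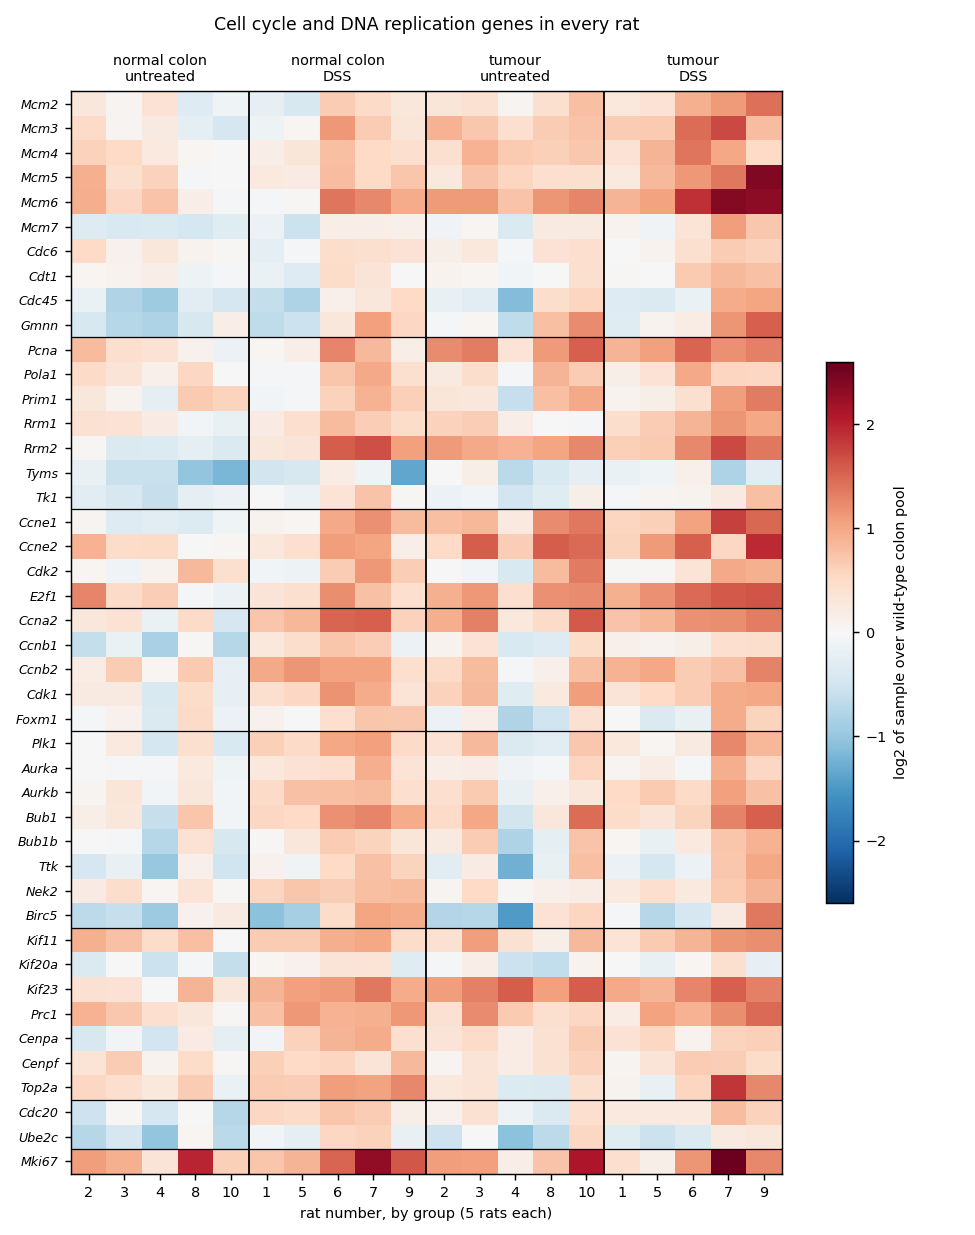
Level of each of the 44 members (rows, grouped by role with black lines) in every rat (columns, 5 per group), as log2 of the sample over the pool; red is above and blue below the pool. In normal colon of DSS rats the mitotic rows are red or pale in nearly every rat, while most of the upper rows are red in rats 6, 7 and 9 and near 0 or blue in rats 1 and 5.

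Tumours were first compared with normal colon, both from the same rats, in a fit of 4 groups that did not use the pairing. Fits with the rat as a block are given further below. Of the replication and S phase entry genes 10 of 21 were higher in tumours, and of the mitotic genes 1 of 22; the difference between these groups of genes was not itself tested. Over all 10 rats, 11 of 44 members were higher in tumours and 0 lower (limma, adjusted p under 0.05), against 10.7% of all features higher and 20.8% in either direction. The mitotic gene was Kif23. All 21 replication and S phase entry genes had a positive difference, with a median of 0.40 on the log2 scale, and the 22 mitotic genes had a median of 0.06, with 16 above 0. Over all features the median was 0.01, and 51.8% were above 0. Mcm3, Mcm7 and Ccne1 were higher in the tumour of all 10 rats, which 4.98% of features were.

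Among licensing factors and helicase subunits, 5 of 10 were higher over all rats, against 10.7% of all features: Mcm2, Mcm3, Mcm4, Mcm6 and Mcm7. Mcm6 had the largest difference. Its level was 0.95, 0.54, 0.74, 0.17 and -0.05 in normal colon of untreated rats 2, 3, 4, 8 and 10, and 1.10, 1.11, 0.74, 1.15 and 1.27 in their tumours. In DSS rats 1, 5, 6, 7 and 9 it was -0.03, 0.04, 1.40, 1.26 and 0.96 in normal colon and 0.88, 1.04, 1.89, 2.39 and 2.32 in tumours. Rats 6, 7 and 9 were high in both tissues, and the tumour exceeded the normal colon in 9 of 10 rats, with rat 4 level, although the groups overlapped. The difference over all rats was 0.79 ± 0.23 (SE, limma adjusted p = 0.0182).

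Mcm3, another helicase subunit, differed by 0.66 ± 0.17 (SE, limma adjusted p = 0.00978) and Mcm7 by 0.43 ± 0.13 (SE, limma adjusted p = 0.0267). Mcm2 differed by 0.50 ± 0.17 and Mcm4 by 0.38 ± 0.12, each higher in 9 of 10 rats. Second probes gave smaller values: 0.35 for Mcm3 and 0.17 for Mcm4, which were not called, and 0.34 for Mcm2, which was. These 5 are parts of one ring, and its other subunit, Mcm5, had a difference of 0.40 ± 0.20 (SE, limma adjusted p = 0.182), which did not pass. In Mcm5 the tumour of rat 9 stood at 2.40, on 1 of the 3 arrays of raised signal, which also gave the Mcm6 value of that tumour. Without these 3 arrays Mcm4 and Mcm7 lost their call over all rats.

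The loading factors themselves did not pass. Cdc6 had the smallest difference of the group, at 0.09 ± 0.11 (SE, limma adjusted p = 0.651). Its level was 0.52, 0.11, 0.30, 0.08 and 0.03 in untreated normal colon and 0.15, 0.27, -0.06, 0.38 and 0.43 in untreated tumours. In DSS rats it stood at -0.24, -0.05, 0.47, 0.42 and 0.37 in normal colon and -0.01, 0.10, 0.42, 0.66 and 0.59 in tumours. The 4 groups overlapped throughout. Cdt1 differed by 0.23 ± 0.12, the helicase cofactor Cdc45 by 0.36 ± 0.25 and the Cdt1 inhibitor geminin (Gmnn) by 0.56 ± 0.29.

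Of the 7 genes for polymerases, clamp and nucleotide supply, Pcna and Rrm2 were higher in tumours over all rats, against 10.7% of all features. Pcna, the sliding clamp, stood at 0.82, 0.45, 0.37, 0.10 and -0.16 in untreated normal colon and at 1.23, 1.33, 0.35, 1.11 and 1.55 in untreated tumours. Rats given DSS had 0.05, 0.16, 1.27, 0.84 and 0.18 in normal colon and 0.89, 1.06, 1.51, 1.18 and 1.31 in tumours. Every tumour except that of rat 4 was at 0.89 or above, and normal colon of rat 6 was the only normal sample over 0.84. The difference was 0.74 ± 0.18 (SE, limma adjusted p = 0.00489) over all rats and 0.80 ± 0.25 (SE, limma adjusted p = 0.031) in untreated rats alone. A second probe of Pcna gave 0.86 over all rats and was called.

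Rrm2, the regulated subunit of ribonucleotide reductase, which makes the building blocks of DNA, was the member with the largest difference in untreated rats. It stood at 0.02, -0.38, -0.36, -0.26 and -0.38 in their normal colon and 1.10, 0.99, 0.90, 1.03 and 1.24 in their tumours, with no overlap. Its values after DSS were 0.29, 0.34, 1.57, 1.68 and 1.08 in normal colon and 0.63, 0.68, 1.24, 1.71 and 1.38 in tumours, which overlapped. The difference was 1.32 ± 0.25 (SE, limma adjusted p = 0.00122) in untreated rats and 0.14 ± 0.25 (SE, limma adjusted p = 0.827) in DSS rats. Normal colon of DSS rats was itself high in rats 6, 7 and 9. A second probe of Rrm2 gave 0.70 in untreated rats, which was called, and over all rats 0.30, which was not, against 0.73.

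The other 5 did not pass over all rats: Rrm1, the partner subunit, at 0.22 ± 0.12, thymidylate synthase (Tyms) at 0.32 ± 0.18, the primase subunit Prim1 at 0.15 ± 0.21, the polymerase subunit Pola1 at 0.13 ± 0.15 and thymidine kinase (Tk1) at 0.10 ± 0.12. Tk1 was the smallest. It stood at -0.28, -0.43, -0.60, -0.25 and -0.15 in untreated normal colon and -0.14, -0.07, -0.50, -0.32 and 0.14 in untreated tumours. Among DSS rats the values were 0.01, -0.15, 0.35, 0.74 and 0.03 in normal colon and -0.04, 0.07, 0.08, 0.24 and 0.77 in tumours, and the tissues overlapped in both treatments.

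Of the 4 genes of S phase entry, 3 were higher in tumours over all rats, against 10.7% of all features: both E-type cyclins and E2f1. Ccne1 stood at 0.07, -0.33, -0.29, -0.36 and -0.10 in untreated normal colon and 0.78, 0.87, 0.25, 1.22 and 1.37 in untreated tumours, which did not overlap. Values in DSS rats were 0.10, 0.06, 0.98, 1.19 and 0.82 in normal colon and 0.55, 0.61, 1.04, 1.78 and 1.50 in tumours, which overlapped, although each tumour was above the normal colon of its own rat. The difference was 0.78 ± 0.19 (SE, limma adjusted p = 0.00562) over all rats and was positive in 10 of 10. A second probe of Ccne1 gave 0.37 over all rats, which was called, and 0.43 in untreated rats, which was not, against 1.10. Ccne2 differed by 0.66 ± 0.21 (SE, limma adjusted p = 0.0311) and E2f1, an activating E2F factor, by 0.64 ± 0.17 (SE, limma adjusted p = 0.0123), each positive in 8 of 10 rats.

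Cdk2, the kinase bound by cyclin E, had the smallest difference of this group, at 0.05 ± 0.23 (SE, limma adjusted p = 0.923). It stood at 0.06, -0.10, 0.09, 0.84 and 0.42 in untreated normal colon and 0.01, -0.06, -0.40, 0.83 and 1.35 in untreated tumours. With DSS it stood at -0.07, -0.13, 0.66, 1.13 and 0.64 in normal colon and 0.02, 0.02, 0.35, 0.99 and 0.92 in tumours. In every group the rats of the second slide set (8 and 10, or 7 and 9) were at 0.42 or above, and in each tissue rat 6 was the highest of the first set.

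**Figure D3:**
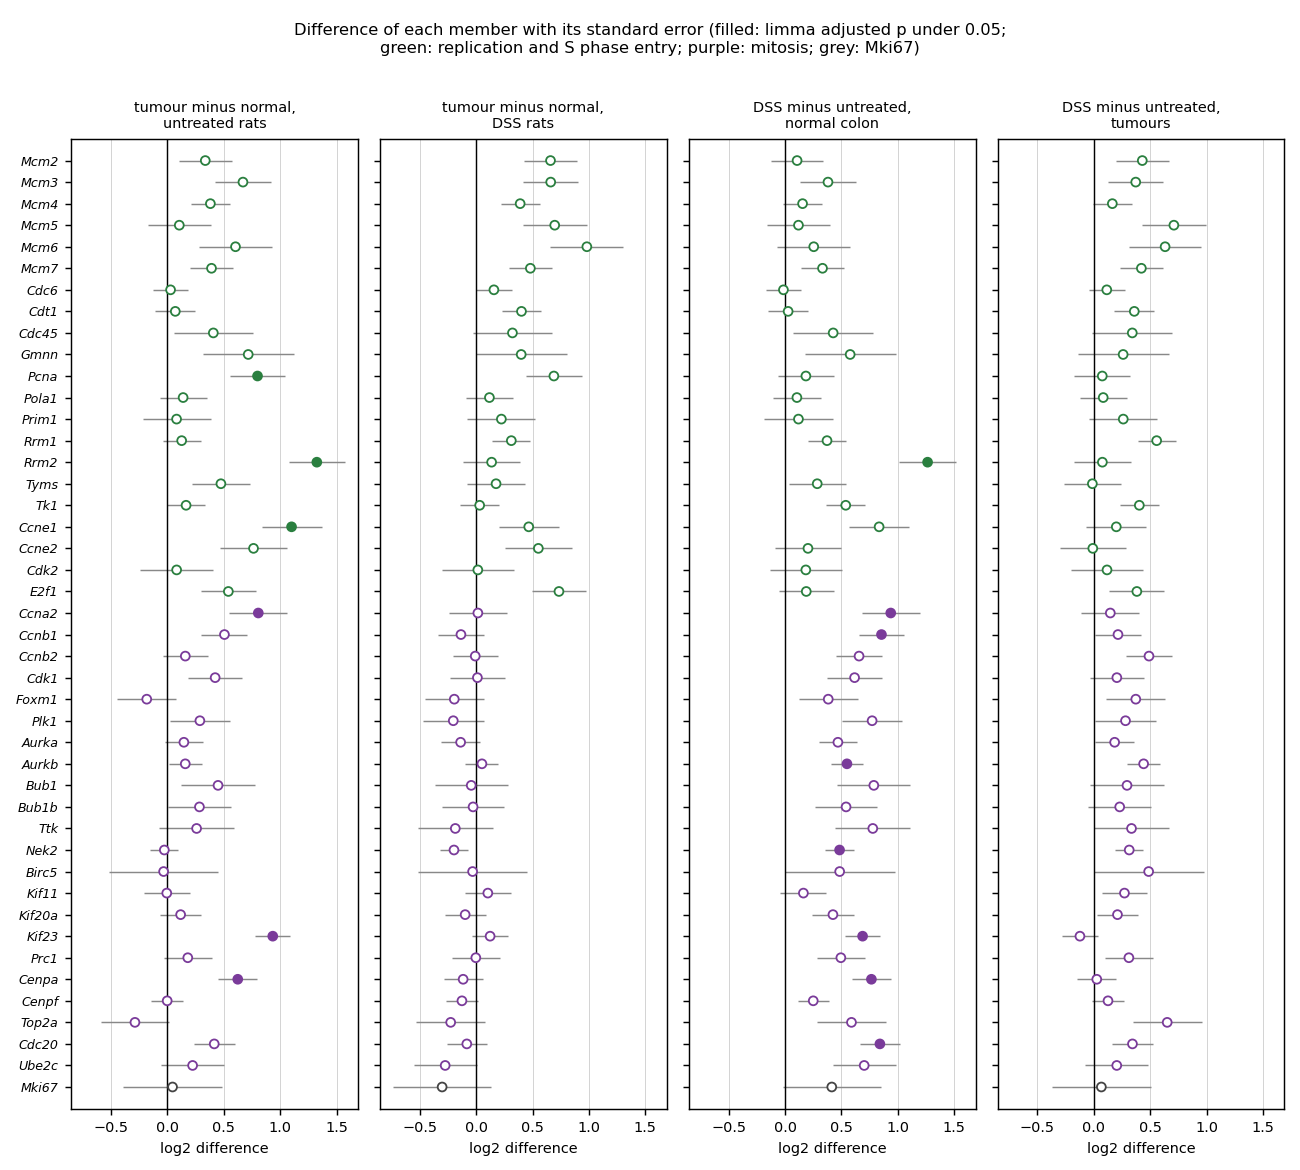
Log2 difference of each member (points) with its standard error (bars) in 4 comparisons of 5 rats with 5; filled points passed limma's adjusted p of 0.05. The panels share samples: each group enters 2 of them. All replication genes (green) lie right of 0 in both panels of tumour minus normal colon. Of the 22 mitotic genes (purple), 16 do so in untreated rats and 5 in DSS rats. In both panels of DSS minus untreated, nearly all members of both groups lie right of 0.

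Few mitotic genes passed in tumours. Of 5 genes of mitotic entry, 0 passed over all rats by limma, and 1 had an unadjusted p under 0.05, as 31.3% of all features did. Cyclin A2 (Ccna2), which acts in S phase and at mitotic entry, had the largest difference, at 0.41 ± 0.18 (SE, limma adjusted p = 0.126). It stood at 0.29, 0.39, -0.18, 0.51 and -0.43 in untreated normal colon and 0.93, 1.31, 0.27, 0.49 and 1.59 in untreated tumours, a difference of 0.81 ± 0.26 (SE, limma adjusted p = 0.0355) that passed. A second probe gave 0.45 there and was not called. DSS rats had 0.71, 0.87, 1.51, 1.56 and 0.60 in normal colon and 0.73, 0.86, 1.18, 1.20 and 1.34 in tumours. All samples of DSS rats, at 0.60 or above, lay above the 5 normal colons of untreated rats, and their tissues overlapped, with a difference of 0.01 ± 0.26 (SE, limma adjusted p = 0.985).

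Ccnb1, the main mitotic cyclin, stood at -0.62, -0.17, -0.84, 0.04 and -0.74 in untreated normal colon and 0.08, 0.37, -0.39, -0.34 and 0.47 in untreated tumours. In DSS rats it stood at 0.27, 0.46, 0.72, 0.64 and -0.16 in normal colon and 0.14, 0.08, 0.15, 0.43 and 0.45 in tumours. The difference over all rats was 0.18 ± 0.14 (SE, limma adjusted p = 0.435), with the tumour higher in 4 untreated rats and 1 DSS rat. Its kinase Cdk1 stood at 0.23, 0.24, -0.39, 0.48 and -0.21 in untreated normal colon and 0.60, 0.84, -0.32, 0.24 and 1.10 in untreated tumours. In DSS rats Cdk1 stood at 0.42, 0.54, 1.16, 0.96 and 0.35 in normal colon and 0.33, 0.51, 0.65, 0.97 and 1.01 in tumours, and its difference over all rats was 0.22 ± 0.17 (SE, limma adjusted p = 0.44). Tissues overlapped for both genes in both treatments.

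Ccnb2, a second B-type cyclin, had the smallest difference, 0.07 ± 0.14 (SE, limma adjusted p = 0.79). It stood at 0.20, 0.67, 0.05, 0.69 and -0.21 in untreated normal colon and 0.49, 0.82, -0.04, 0.12 and 0.79 in untreated tumours. Rats given DSS had 0.99, 1.15, 1.05, 1.04 and 0.44 in normal colon and 0.90, 1.0, 0.66, 0.76 and 1.30 in tumours. The tissues overlapped, and in DSS rats normal colon of rat 9 was the low one while its tumour was the high one. Foxm1, the transcription factor of mitotic genes, differed by -0.19 ± 0.18.

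Of 8 mitotic kinases and checkpoint genes, 0 passed in tumours over all rats by limma, against 20.8% of all features in either direction. An unadjusted p under 0.05 was found for 0 of them, and for 31.3% of all features. Bub1, a checkpoint kinase, had the largest difference, 0.20 ± 0.23 (SE, limma adjusted p = 0.624). It stood at 0.16, 0.30, -0.59, 0.72 and -0.06 in untreated normal colon and 0.49, 1.0, -0.47, 0.29 and 1.46 in untreated tumours. Its values after DSS were 0.53, 0.51, 1.18, 1.26 and 0.97 in normal colon and 0.48, 0.33, 0.59, 1.28 and 1.56 in tumours. Aurora kinase A (Aurka) had the smallest difference, at 0.00 ± 0.12 (SE, limma adjusted p = 0.991) with a 95% interval of -0.25 to 0.26. It stood at -0.01, -0.02, -0.04, 0.26 and -0.12 in untreated normal colon and 0.17, 0.19, -0.09, -0.03 and 0.56 in untreated tumours. In rats given DSS, Aurka stood at 0.28, 0.38, 0.44, 0.95 and 0.37 in normal colon and 0.07, 0.20, -0.03, 0.94 and 0.54 in tumours. For both genes the tissues overlapped. Plk1, Bub1b, Ttk, Nek2, Birc5 (survivin) and Aurkb had differences of -0.11 to 0.13.

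Of 7 genes of spindle, centromere and chromosome structure, 1 passed over all rats, Kif23, against 10.7% of all features higher and 20.8% in either direction. Kif23, a kinesin of the central spindle and cytokinesis, stood at 0.39, 0.37, 0.02, 0.88 and 0.30 in untreated normal colon and 1.10, 1.30, 1.58, 1.07 and 1.58 in untreated tumours. Among DSS rats the values were 0.88, 1.06, 1.11, 1.38 and 0.97 in normal colon and 1.0, 0.89, 1.26, 1.55 and 1.31 in tumours. Untreated normal colon was apart from untreated tumours, and in DSS rats the tissues overlapped. The difference was 0.93 ± 0.16 (SE, limma adjusted p = 0.000491) in untreated rats and 0.12 ± 0.16 (SE, limma adjusted p = 0.734) in DSS rats. Cenpa, the histone variant that marks centromeres, passed in untreated rats at 0.62 ± 0.17 (SE, limma adjusted p = 0.0175) and had 0.25 ± 0.12 (SE, limma adjusted p = 0.169) over all rats.

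Kif20a, another kinesin of cytokinesis, had the smallest difference, 0.01 ± 0.13 (SE, limma adjusted p = 0.977). It stood at -0.37, 0.01, -0.56, -0.03 and -0.63 in untreated normal colon and -0.05, 0.17, -0.55, -0.65 and 0.10 in untreated tumours. In rats given DSS, Kif20a stood at 0.06, 0.12, 0.33, 0.35 and -0.31 in normal colon and 0.01, -0.18, 0.05, 0.41 and -0.22 in tumours. The tissues overlapped in both treatments. Top2a, the topoisomerase that untangles chromosomes and is widely used as a proliferation marker, had a negative difference that did not pass, -0.26 ± 0.22 (SE, limma adjusted p = 0.473). It stood at 0.54, 0.45, 0.28, 0.66 and -0.17 in untreated normal colon and 0.28, 0.36, -0.36, -0.38 and 0.42 in untreated tumours. Values in DSS rats were 0.67, 0.65, 1.10, 1.04 and 1.25 in normal colon and 0.08, -0.19, 0.56, 1.86 and 1.24 in tumours. The tumour was lower than the normal colon in 8 of 10 rats, with rats 10 and 7 the exceptions.

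The genes of mitotic exit had differences on both sides of 0, Cdc20 at 0.17 ± 0.13 (SE, limma adjusted p = 0.428) and Ube2c at -0.03 ± 0.20 (SE, limma adjusted p = 0.953). Cdc20, the activator of the anaphase-promoting complex, stood at -0.54, 0.04, -0.43, 0.02 and -0.73 in untreated normal colon and 0.11, 0.39, -0.13, -0.38 and 0.44 in untreated tumours. With DSS it stood at 0.54, 0.49, 0.71, 0.65 and 0.16 in normal colon and 0.25, 0.25, 0.25, 0.81 and 0.59 in tumours. Ube2c, a ubiquitin-conjugating enzyme that works with that complex, stood at -0.73, -0.44, -1.03, 0.05 and -0.71 in untreated normal colon and -0.53, -0.01, -1.07, -0.68 and 0.55 in untreated tumours. In rats given DSS, Ube2c stood at -0.08, -0.23, 0.54, 0.60 and -0.18 in normal colon and -0.32, -0.56, -0.38, 0.24 and 0.29 in tumours. Tissues overlapped for both genes. In untreated rats 4 of 5 tumours were above their own normal colon for Cdc20, and in DSS rats 2 of 5.

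Mki67, the marker stained most often for proliferation, did not separate tumours from normal colon. It stood at 1.10, 0.93, 0.34, 1.98 and 0.63 in untreated normal colon and 1.09, 1.07, 0.18, 0.75 and 2.10 in untreated tumours. DSS rats had 0.72, 0.88, 1.52, 2.30 and 1.62 in normal colon and 0.44, 0.14, 1.15, 2.55 and 1.25 in tumours. The difference over all rats was -0.13 ± 0.31 (SE, limma adjusted p = 0.837), with a 95% interval of -0.78 to 0.52, and the tumour was higher in 3 of 10 rats. The values spread from 0.14 to 2.55. A second probe gave -0.04 over all rats.

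**Figure D4:**
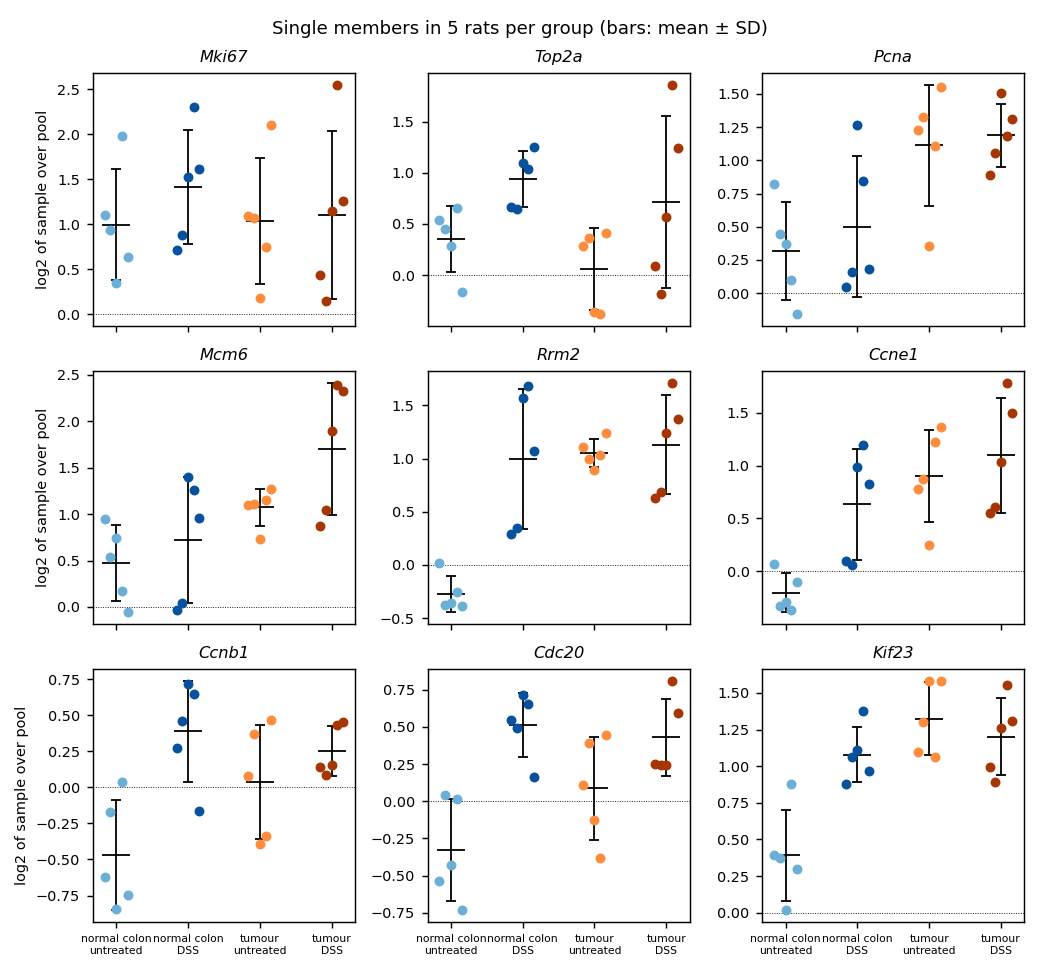
Level of 9 members in 5 rats per group (points, in order of rat number), as log2 of the sample over the pool, with the mean and SD of each group (black). Every gene but Top2a has its lowest mean in untreated normal colon. Pcna, Mcm6, Rrm2, Ccne1 and Kif23 have higher means in tumours than in normal colon in both treatments. Mki67 and Top2a overlap between tissues.

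Taken by treatment, 6 of 44 members were higher and 0 lower in tumours of untreated rats, against 8.59% of all features higher and 18% in either direction. 12 had an unadjusted p under 0.05, as 29.3% of all features did. Those that passed were Rrm2, Ccne1, Pcna, Kif23, Ccna2 and Cenpa, 3 from each group, and for Rrm2, Ccne1 and Kif23 the tissues did not overlap, which held for 6.27% of all features. In DSS rats 0 of 44 passed with limma, against 7.62% of all features in either direction and 3.75% higher, and 9 had an unadjusted p under 0.05, as 19.7% of all features did. All 9 were replication and S phase entry genes. All 21 genes of that group had a positive difference in DSS rats (median 0.40, against 0.02 for all features) and 10 were higher in the tumour of every rat, which 13.7% of all features were. Of the 22 mitotic genes, 5 had a positive difference in DSS rats (median -0.09), where 55% of all features did. In untreated rats 16 did (median 0.20), against 49.5% of all features.

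Tumour and normal colon came from the same animals, and a fit with the rat as a random block was also made. It passed 7 members in untreated rats, against 6 in the main fit, and 11 over all rats, the same count as the main fit. In DSS rats the random block passed 6 of 44, all replication genes: Mcm6 (adjusted p = 0.017), Mcm2 (0.0326), E2f1 (0.0335), Mcm3 (0.0337), Pcna (0.0407) and Mcm7 (0.0474), against 12.9% of all features. With the rat as a fixed block it was 11 of 44 in untreated rats (24.9% of all features) and 6 in DSS rats (12.5%). The counts of the fixed block, and that of the random block in DSS rats, lay near these shares, which hold both directions. Neither block passed a member as lower in tumours. With median centring of each array in place of loess 0 members passed in any comparison, and with equal scaling of the arrays' spreads 0 passed over all rats and 2 in untreated rats. The counts under these scalings are given without the share of all features, so a loss particular to the members cannot be read from them. Over all rats the replication median stayed above the mitotic one, at 0.61 and 0.30 with median centring and 0.51 and 0.36 with equal scaling. In untreated rats alone equal scaling put it below, at 0.72 and 0.77. Over 27 alternative settings of the comparison of all rats Ccne1 kept its call in 25, Pcna, Rrm2, E2f1, Mcm3 and Kif23 in 24, Mcm6 in 22, Mcm7 in 19, Mcm4 in 14 and Mcm2 and Ccne2 in 13.

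Rat by rat, the median tumour difference of the 21 replication genes was 0.29, 0.46, 0.18, 0.49 and 0.73 in DSS rats 1, 5, 6, 7 and 9. The 22 mitotic genes gave medians of -0.13, -0.18, -0.47, 0.04 and 0.38 in the same rats. In each of these 5 rats the replication median lay above the mitotic one. In untreated rats 2, 3, 4, 8 and 10 the replication medians were 0.05, 0.44, -0.03, 0.69 and 0.92 and the mitotic ones 0.27, 0.39, -0.01, -0.35 and 0.95. Here the replication median was the higher in 2 of 5 rats, 3 and 8. The sign of the mitotic median in DSS rats turned with the scaling: it was -0.09 with loess and 0.54 with median centring, where the median of all features was itself 0.25.

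**Figure D5:**
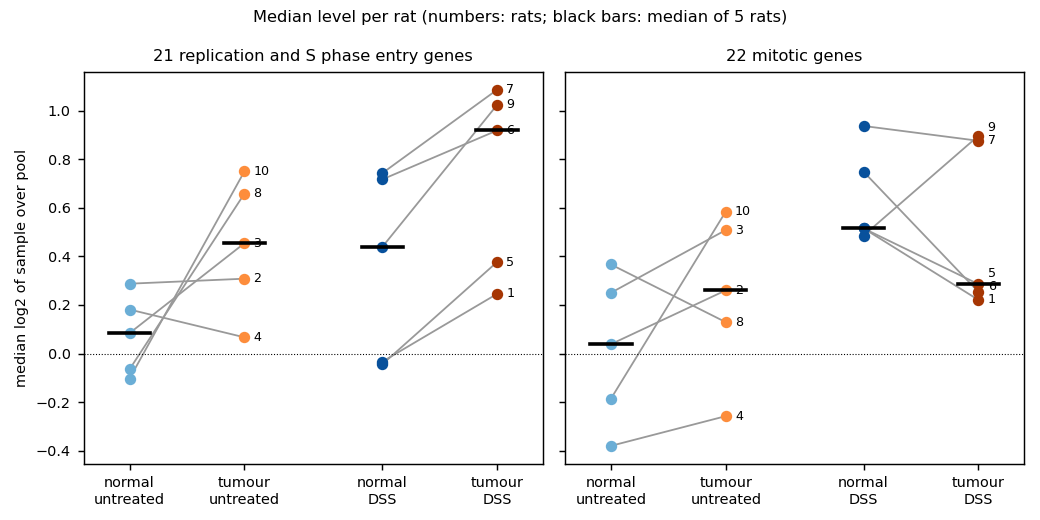
Median level of the 21 replication and S phase entry genes (left) and the 22 mitotic genes (right) in every sample, as log2 of the sample over the pool; lines join the tissues of 1 rat, numbers are rats, and black bars are medians of 5 rats. Replication medians are higher in the tumour in all 5 DSS rats, and mitotic medians in DSS normal colon stand at 0.49 to 0.94.

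The next comparison asked how normal colon differed between DSS and untreated rats. It shares its samples with the tumour comparisons above, so the results are not independent. Of the mitotic genes 7 of 22 were higher after DSS, and of the replication genes 1 of 21. Of 44 members, 8 were higher and 0 lower (limma, adjusted p under 0.05), against 3.93% of all features higher and 7.27% in either direction. They were Ccna2, Ccnb1, Cdc20, Aurkb, Nek2, Cenpa and Kif23 of the mitotic group and Rrm2 of the replication group. All 22 mitotic genes had a positive difference, with a median of 0.60, and 20 of 21 replication genes did, with a median of 0.20. Over all features the median was -0.01, and 46.4% were above 0. For 9 members, 7 of them mitotic, the 5 DSS rats did not overlap the 5 untreated rats, which held for 4.55% of all features in that direction.

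The values of these genes are those given above for normal colon. Rrm2 had the largest difference, 1.26 ± 0.25 (SE, limma adjusted p = 0.00409), and all 5 DSS rats were above all untreated rats, with rats 6, 7 and 9 at 1.08 to 1.68 and rats 1 and 5 at 0.29 and 0.34. Cdc20 differed by 0.84 ± 0.18 (SE, limma adjusted p = 0.00751), Ccnb1 by 0.85 ± 0.20 (SE, limma adjusted p = 0.0152) and Ccna2 by 0.94 ± 0.26 (SE, limma adjusted p = 0.0331). For Cdc20 and Ccna2 the groups did not overlap, and for Ccnb1 the DSS rat 9, at -0.16, lay below the highest untreated rat, at 0.04. Second probes gave 0.70 for Rrm2 and 0.71 for Ccna2, which were called, and 0.62 for Ccnb1, which was not. Kif23 differed by 0.69 ± 0.16 (SE, limma adjusted p = 0.0117), with untreated rat 8 and DSS rat 1 both at 0.88 to 2 decimals.

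Cenpa stood at -0.42, -0.07, -0.51, 0.21 and -0.24 in normal colon of untreated rats 2, 3, 4, 8 and 10 and at -0.06, 0.60, 0.89, 0.96 and 0.42 in that of DSS rats 1, 5, 6, 7 and 9, a difference of 0.77 ± 0.17 (SE, limma adjusted p = 0.0114). The groups overlapped through rat 1. Aurora kinase B (Aurkb) stood at 0.07, 0.32, -0.06, 0.30 and -0.07 in untreated and 0.50, 0.76, 0.78, 0.82 and 0.45 in DSS rats, a difference of 0.55 ± 0.15 (SE, limma adjusted p = 0.0282) without overlap. The centrosome kinase Nek2 stood at 0.20, 0.45, 0.06, 0.36 and 0.03 in untreated and 0.56, 0.72, 0.63, 0.77 and 0.82 in DSS rats, a difference of 0.48 ± 0.13 (SE, limma adjusted p = 0.0246), again without overlap.

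In their tumours, Cenpa stood at 0.34, 0.49, 0.19, 0.40 and 0.66 in untreated and 0.38, 0.54, 0.09, 0.58 and 0.62 in DSS rats. Aurkb stood there at 0.43, 0.68, -0.20, 0.13 and 0.29 in untreated and 0.53, 0.69, 0.50, 1.07 and 0.77 in DSS rats. Nek2 stood at 0.07, 0.52, 0.02, 0.14 and 0.20 in untreated and 0.25, 0.43, 0.26, 0.69 and 0.89 in DSS rats. The treatments overlapped for all 3 genes.

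In normal colon, members that missed the threshold included Ccnb2 at 0.66 ± 0.20 (SE, limma adjusted p = 0.0551) and Ccne1 at 0.83 ± 0.27 (SE, limma adjusted p = 0.0654). Mki67 had a difference of 0.41 ± 0.44 (SE, limma adjusted p = 0.649) and Top2a one of 0.59 ± 0.30 (SE, limma adjusted p = 0.287), neither of which passed. The helicase ring did not pass either: Mcm2 to Mcm7 had differences of 0.11 to 0.38.

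DSS rats were not alike in the replication genes of normal colon. The median level of these 21 genes was -0.03 and -0.04 in rats 1 and 5, and 0.72, 0.74 and 0.44 in rats 6, 7 and 9, against -0.10 to 0.29 in untreated rats. The median of the 22 mitotic genes was 0.52, 0.52, 0.75, 0.94 and 0.49 in these 5 DSS rats, against -0.38 to 0.37 in untreated rats, without overlap. The arrays of rats 1 and 5 were scanned on the first day, those of rat 6 on the second and those of rats 7 and 9 on the third. Adding the scan day to the fit, on the first array of each sample, gave medians of 0.13 for replication and 0.52 for mitotic genes and passed 10 members and 13.6% of all features. The first arrays alone, without the scan day, gave 0.24 and 0.60 and passed 8.

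The result was also taken within each slide set. In the first set (3 rats per group) 7 of 44 members were higher in normal colon of DSS rats, against 11.8% of all features in either direction, and in the second (2 rats per group) 0, against 0.00763%. Mitotic medians were 0.63 and 0.59 in these sets, and replication medians 0.08 and 0.59. With the slide set as a block 12 members passed, while the share of all features rose to 13.2%. With rats 1 and 5 counted as 1 sample 9 passed (5.52% of all features), and without the 3 arrays of raised signal 5 did (4.92%). Leaving out rat 2 or rat 6 left 5, and other single rats left 6 to 10. Over 26 alternative settings Cdc20, Cenpa and Kif23 kept their call in 23, Rrm2 in 22, Ccnb1 in 21, Nek2 and Aurkb in 17 and Ccna2 in 16. With median centring 0 members passed and with equal scaling of the arrays' spreads 2 did. Tumour against normal colon over all rats gave 2 members in the first set (17.8% of all features) and 9 in the second (9.65%), with medians of 0.08 and 0.33. Without rat 10 or rat 8, both untreated and of the second set, 6 passed there, without rat 3, 7 and with rats 1 and 5 as 1 sample 8. In untreated rats alone, 3 passed without rat 10. The counts without single rats, those with median centring or equal scaling, and those for tumours with rats 1 and 5 as 1 sample, are given without the share of all features.

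In tumours, DSS made no difference that passed: 0 of 44 members and 0 of 26196 features had an adjusted p under 0.05 with limma, the smallest being 0.164 over all features. 8 members had an unadjusted p under 0.05, as 6.34% of all features did. The member median was 0.27, with 41 of 44 above 0, against 52.2% of all features. The largest differences were Mcm5 at 0.71 ± 0.28 (SE, limma adjusted p = 0.653), Top2a at 0.65 ± 0.30 (SE, limma adjusted p = 0.783), Mcm6 at 0.63 ± 0.32 (SE, limma adjusted p = 0.848) and Rrm1 at 0.56 ± 0.17 (SE, limma adjusted p = 0.444). With equal scaling of the arrays' spreads the replication median in this comparison was -0.01, against 0.26, so its direction depends on the scaling.

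The DSS effect was then compared between tissues, as the effect in tumours minus that in normal colon. By limma 0 of 44 members passed, against 2.59% of all features (0.886% higher), and 5 had an unadjusted p under 0.05, against 15.1%. The most negative were Rrm2 at -1.19 ± 0.35 (SE, limma adjusted p = 0.0866), Kif23 at -0.81 ± 0.22 (SE, limma adjusted p = 0.0591), Ccna2 at -0.79 ± 0.36 (SE, limma adjusted p = 0.307) and Cenpa at -0.74 ± 0.25 (SE, limma adjusted p = 0.129). With the rat as a random block 3 of these passed as lower: Rrm2 (adjusted p = 0.0149), Kif23 (0.0215) and Cenpa (0.048), against 6.3% of all features. With the rat as a fixed block 1 did, Rrm2. The median was -0.30 for mitotic genes, with 3 of 22 above 0 (54.2% of all features), and -0.01 for replication genes, and both were positive with median centring (0.40 and 0.74, beside 0.38 for all features).

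Other genes of the same processes were taken from lists of 40 replication and 40 mitotic genes without the 44. Of 39 further replication genes measured, 10 were higher in tumours over all rats and 0 lower, with a median of 0.27, against 10.7% of all features higher. They included the helicase factor Gins4 at 0.56 ± 0.12 (SE, limma adjusted p = 0.00219) and Timeless, a replication fork protein, at 0.71 ± 0.15 (SE, limma adjusted p = 0.00267). Of 37 further mitotic genes, 0 passed over all rats by limma, with a median of 0.06. In normal colon of DSS rats these lists gave 0 of 39 and 3 of 37 higher, with medians of 0.15 and 0.29, against 3.93% of all features.

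Upstream regulators were also read. Of 13 further cyclins, kinases and their regulators, 5 were higher in tumours over all rats, against 10.7% of all features. Among them were the D-type cyclins Ccnd1 at 0.81 ± 0.09 (SE, limma adjusted p = 4e-06) and Ccnd2 at 0.88 ± 0.14 (SE, limma adjusted p = 0.000204). Ccnd1 was lower in normal colon of DSS rats, at -0.41 ± 0.12 (SE, limma adjusted p = 0.0485). Myc, which drives growth and cell cycle entry downstream of Wnt signalling, was higher in tumours by 1.52 ± 0.20 (SE, limma adjusted p = 3.79e-05) and had 0.04 ± 0.29 (SE, limma adjusted p = 0.956) in normal colon of DSS rats. Of 7 inhibitors of cyclin-dependent kinases, Cdkn1c was higher in tumours by 1.83 ± 0.28 (SE, limma adjusted p = 0.000138), and Cdkn1b and Cdkn2b were lower, at -0.60 ± 0.16 (SE, limma adjusted p = 0.0108) and -0.74 ± 0.23 (SE, limma adjusted p = 0.0252). Cdkn1a (p21) had 0.57 ± 0.38 (SE, limma adjusted p = 0.342). Of all features, 20.8% passed in either direction over all rats. In normal colon of DSS rats 1 of the 7 inhibitors was higher and 0 lower, against 7.27% of all features in either direction. Their differences there ran from -0.56 to 1.92. For the DSS effect in tumours minus that in normal colon 1 was lower and 0 higher, with a lowest value of -2.33, against 2.59% of all features.

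Of 12 genes of the Rb, E2F and DREAM group, which switch cell cycle genes on and off, E2f5 was higher in tumours at 0.46 ± 0.14 (SE, limma adjusted p = 0.0273) and E2f6 at 0.26 ± 0.09 (SE, limma adjusted p = 0.0386). Rbl2, a relative of Rb, was lower at -0.59 ± 0.15 (SE, limma adjusted p = 0.0096) and Tfdp2, a partner of E2F, at -0.37 ± 0.10 (SE, limma adjusted p = 0.0152). In normal colon of DSS rats 3 of these 12 were lower, Rb1, Rbl2 and Tfdp2, against 7.27% of all features in either direction. Of 14 DNA damage and repair genes, the exonuclease Exo1 was higher in tumours, at 0.72 ± 0.24 (SE, limma adjusted p = 0.0369), and Gadd45a lower, at -0.57 ± 0.18 (SE, limma adjusted p = 0.0287). For both lists the share of all features that passed in tumours over all rats was 20.8% in either direction.

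Markers of cell types also differed in several of these comparisons, and their association with the members was not tested. In normal colon of DSS rats, 10 of the 10 squamous epithelium markers measured were higher than in untreated rats, against 3.93% of all features. The list held 11, and Ivl did not pass the filter on dim probes. Ivl was well above background on 0 of 6 arrays of DSS normal colon and 2 of 7 of untreated normal colon. The mean level of the 10 measured markers per rat was 2.64 to 4.37 in DSS rats, -0.01 to 1.78 in untreated rats and -0.02 to 0.36 in tumours. The 1.78 was untreated rat 8, and the other untreated rats were at -0.01 to 0.14. Tp63 was well above background on 6 of 6 arrays of DSS normal colon, 2 of 7 of untreated normal colon and no array of tumours. It passed the filter of at least 5 arrays only through DSS normal colon, so its call cannot be read apart from the filter. Neutrophil markers were higher in normal colon of DSS rats for 2 of 4, and fibroblast markers for 1 of 6. Neutrophil means per rat were 1.56 to 2.12 against 0.02 to 0.71, with the 0.71 also in untreated rat 8. The part of all these cells in the mitotic genes was not tested.

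In tumours over all rats, 5 of 5 absorptive colonocyte and 5 of 5 goblet cell markers were lower, with median differences of -1.93 and -1.97. Of all features, 20.8% passed there in either direction. Fibroblast markers were higher for 4 of 6. Neutrophil markers were higher for 3 of 4 in untreated rats (median 2.05) and for 0 of 4 by limma in DSS rats (median -0.10). Squamous markers were lower for 0 of 10 by limma in untreated rats (median -0.09) and for 8 of 10 in DSS rats (median -3.11). B cell markers passed for 0 of 3 by limma, and T cell markers were higher for 2 of 5. Of 4 crypt base and stem cell markers 1 was higher. The part of these cells in the replication genes was not tested.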

How the data were processed

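RNA from 20 samples (10 rats, 2 tissues) was compared with a pool of wild-type rat colon on 24 two-colour Agilent arrays, with the sample in Cy3 and the pool in Cy5 on every array (no dye swap). The deposited intensity values were read from the scanner files that Feature Extraction wrote (version 9.1.3.1, from the headers). The submitters' processing notes also list Partek, without its role. The deposited log10 ratios of Cy5 over Cy3 served only to check the channels.

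Intensities were corrected with normexp (offset 50), normalised by loess within each array and taken as log2 of Cy3 over Cy5 with limma 3.58.1 in R 4.3.3. Control spots had weight 0 in loess, and non-uniform spots were left out (391 missing values, 0.0746%). Probes well above background in Cy3 on at least 5 arrays were kept, with the brightest probe per gene. A model of 4 groups of 5 rats was fitted to 26196 features, with moderated variances (16 residual and 2.23 prior degrees of freedom) and Benjamini-Hochberg adjustment over all features at 0.05. The number of rats limits the precision, and p-values measure the spread between these rats.

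Both tissues came from the same animals, so the rat pairs the samples; the deviations of the tissues of 1 rat from their group means correlated at 0.0817 to 0.566. Fits with the rat, slide set, slide or scan day as a block, other scalings and filters, and single rats left out were run as alternatives. The genes named with values in each rat are the largest and smallest tumour differences of each role, all members that passed in normal colon of DSS rats, and Mki67, Pcna, Top2a, Ccnb1 and Cdk1. Of further pathway genes, those with the smallest p in each direction, Myc, Cdkn1a and the D-type cyclins are named. Members, lists and tests were chosen with earlier results of these data known. Promoters and probe sequences were searched as letters only.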

Additional observations from a re-analysis of the deposited data

Results flagged for a closer look

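In normal colon of DSS rats, Aurka, a mitotic kinase, stood at 0.95 (log2 of the sample over the pool) in rat 7, against 0.28 to 0.44 in the other 4 rats. In the same group Ccnb2, a mitotic cyclin, stood at 0.44 in rat 9, against 0.99 to 1.15 in the other 4. In both, 1 rat lay farther from the rest than Dixon's limit for 5 samples. These were 2 of 176 groups examined, and chance alone marks about 1 in 20.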

How the results depend on the processing

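The values here are counts of the 44 members that passed limma's adjusted p. For most settings the share of all features is not given beside them, so a change in a count is not set against it. Median centring in place of loess left 0 in tumours of untreated rats, 0 over all rats and 0 in normal colon with DSS; equal scaling of the arrays' spreads left 2, 0 and 2. The replicate block with the rat as a random effect passed 6 in tumours of DSS rats and 3 for the DSS effect between tissues. As a fixed effect it passed 11 in untreated rats, 6 in DSS rats and 1 between tissues. Neither block changed the other counts it could give by over 1.5 times. The fixed block cannot estimate DSS against untreated rats within a tissue, so it gives no count there. With the slide set as a block 2 passed in tumours of DSS rats and 2 between tissues. Within the first slide set 2 passed in tumours of untreated rats, 2 over all rats and 1 between tissues; within the second 1 passed in tumours of DSS rats and 0 in normal colon with DSS. On the first array of each sample with the slide as a block 3 passed in tumours of untreated rats and 1 in those of DSS rats, and with the scan day as a block 4 in the latter; first arrays with no block gave 7 and 0. Array weights passed 1 there (12.4% of all features), 14 in normal colon with DSS (19.5%, against 7.27%) and 1 between tissues (4.67%). The scanner's processed signals passed 1 between tissues, as did counting DSS rats 1 and 5 as 1 sample, an alternative chosen after seeing the data. Without the arrays of raised signal 4 passed in tumours of untreated rats, 9 over all rats and 5 in normal colon with DSS. Pcna and Ccna2 lost their call in untreated rats, and Mcm4 and Mcm7 over all rats. The cause of these shifts was not tested. Leaving out 1 rat at a time gave 3 to 7 in tumours of untreated rats, 0 to 1 in those of DSS rats, 6 to 11 over all rats, 5 to 10 in normal colon with DSS, 0 to 0 in tumours with DSS and 0 to 1 between tissues. No alternative run turned a called member's direction.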

Other observations

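Other probes of the members gave the same sign as the probe used for 19 of 21 over all rats (tumour minus normal colon) and for 20 of 21 in normal colon with DSS. Of 7 members called over all rats that had another probe, 4 were called by that probe too, and of 3 called in normal colon with DSS, 2 were.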
